A study of Mus musculus with 10 samples.

Results

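Sorted basal cells of the mouse mammary gland are described here from 5 bulk RNA-seq libraries, chosen as every library whose cell type label is basal, out of 10 libraries in the series. The other 5 libraries come from luminal cells. All 10 were made from wild-type mice of the C57BL/6J strain with no treatment named beyond the genotype, so the groups differ by cell type label and by the sort gate that defined it. Virgin glands were dissociated with collagenase and hyaluronidase and then with trypsin and dispase, and cells were separated by fluorescence-activated sorting on EpCAM and CD49f (the product of Itga6). The study's methods give an adult age range for its mice as a whole and no age for each library, and whether glands of several mice were pooled is not given in the sources used here. Replicate numbers 1 to 5 come from the labels, whereas the study's methods describe fewer replicates per condition for RNA-seq and call them biological. Nothing further in them states that libraries came from separate mice, so the p-values below measure the spread between these libraries. In every sample the title and the cell type label disagree, and the libraries are grouped here by the label, which the marker genes below match.

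The mammary epithelium is a bilayer. Luminal cells line the duct, and basal cells, most of them contractile myoepithelial cells, lie outside them on the basement membrane, which they help to build. Myoepithelial cells combine keratin filaments with a smooth-muscle actin and myosin apparatus, and contract when oxytocin binds its receptor. The basal gate also takes in cells with stem cell activity. Cells of connective tissue can enter such sorts. The study's sorting method also stains red blood, endothelial and immune cells with lineage antibodies, a step that the labels of these libraries do not name.

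The basal libraries held between 13676558 and 17998165 counts, and between 16840 and 17691 genes with at least 1 count. Levels below are CPM, read counts relative to the total of the library, scaled by trimmed mean of M-values (TMM), a scaling that centres most genes between libraries, with factors of 0.892 to 0.960 in basal libraries. The 100 most abundant genes took 20.3 to 22.5% of a basal library's counts. For 14609 genes the cell types were compared by edgeR (quasi-likelihood fit), and a Benjamini-Hochberg adjusted p under 0.05 counted as a call. By that rule 31.2% of the tested genes were higher in basal cells and 33.6% were lower, so a list of basal genes is read against those shares. The median log2 difference over all tested genes was -0.05. Basal replicates 1 and 4 stood apart from the others in sets of genes given below. Of the 4558 genes higher and 4904 lower, the counts became 4410 and 4682 without basal replicate 1, and 4548 and 5012 without basal replicate 4.

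All 6 defining markers of basal cells were higher in the basal libraries, where their summed level ran from 9428 to 13219 CPM against 20.8 to 72.3 CPM in luminal libraries. Krt14, a keratin of basal epithelia, measured 3037, 2247, 1954, 2333 and 2578 CPM in basal replicates 1 to 5. Its partner Krt5 measured 1349, 1816, 2002, 2112 and 1319 CPM. Trp63, which encodes the p63 transcription factor, was steadier, at 293, 288, 313, 241 and 251 CPM. No luminal library exceeded 26.7 CPM for Krt14, 18.1 CPM for Krt5 or 2.03 CPM for Trp63, so the groups did not overlap. The smooth-muscle actin Acta2 stood at 5115, 6186, 6329, 4608 and 3714 CPM. The smooth-muscle myosin heavy chain Myh11 stood at 1480.2, 1964, 1735, 984 and 1135 CPM, and calponin, Cnn1, at 692, 718, 639, 467 and 430.1 CPM. These 3 contractile markers were lowest in replicates 4 and 5, whereas Krt5 was highest in replicate 4 and Krt14 lowest in replicate 3. The label is therefore matched by its markers in every basal library.

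Markers of other cell types were low but not absent. The 14 luminal markers summed to 1449, 1147, 1233, 1097 and 968 CPM in basal replicates 1 to 5, against 11152 to 17433 CPM in luminal libraries, and all 14 were lower in basal cells. Most of the basal remainder was keratin, since Krt8 ran from 429 to 626 CPM and Krt18 from 421 to 726 CPM, while Elf5, a luminal progenitor factor, was at most 0.498 CPM. In bulk RNA, fewer cells of a type and less RNA per cell cannot be told apart. The 10 fibroblast markers summed to between 30.2 and 46.9 CPM, the 10 endothelial markers to between 17.5 and 25.2 CPM, and the 6 adipocyte markers to between 3.94 and 9.12 CPM. The 6 Schwann cell markers summed to 98.8 to 134 CPM in basal and 271 to 312 CPM in luminal libraries. Of the 4 tested, 1 was higher in basal cells, 2 were lower and 1 was not called. Of the 13 immune markers, Cd3e, Cd3g and Nkg7 were at 0 in every basal library, and Cd68 with Csf1r made up most of the sum of 37.7 to 55.6 CPM. Among 8 pericyte markers, whose sum was 41.9 to 65.9 CPM, 5 of 6 tested were higher in basal cells and Higd1b was at 0. The sum was larger in luminal libraries, at 94.8 to 269 CPM, because it includes the Notch receptor gene Notch3, which was lower in basal cells at means of 4.58 and 165 CPM. Rgs5, the best known of them, measured 19.0, 24.3, 19.6, 16.9 and 28.9 CPM in basal libraries against at most 0.796 CPM in luminal ones. The part of such cells in the smooth-muscle genes below was not tested.

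**Figure D1:**
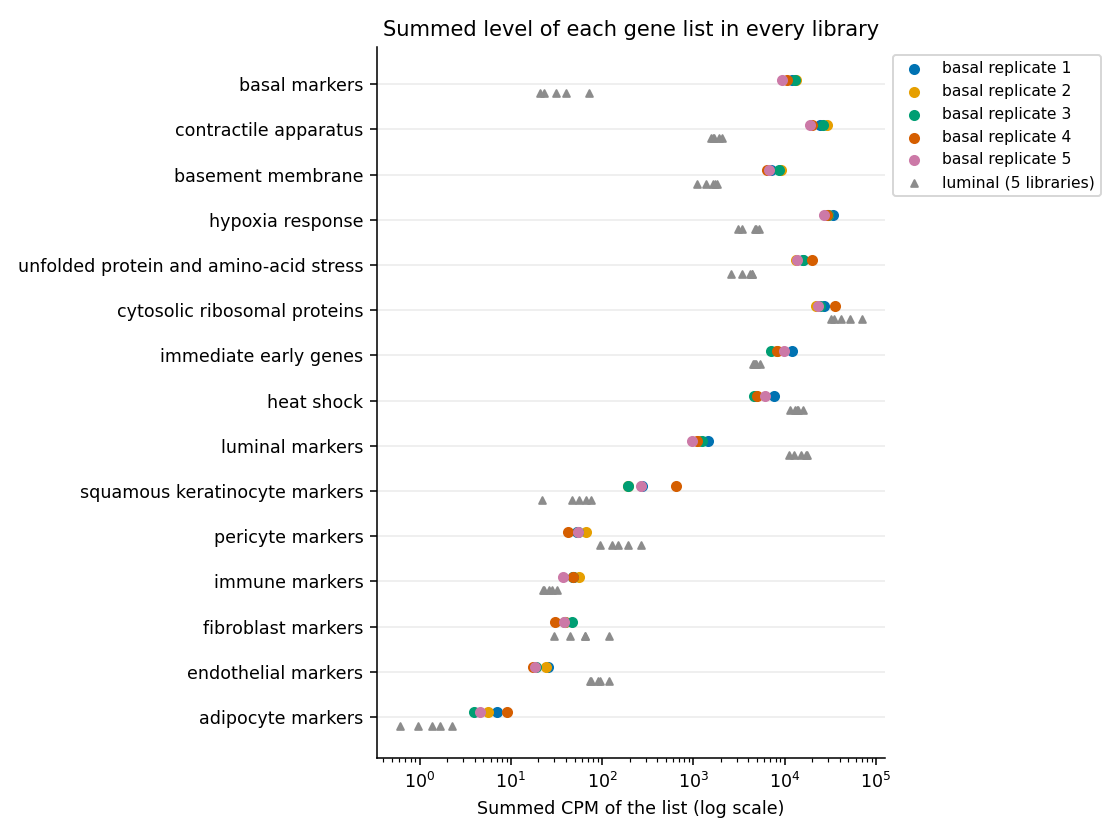
Summed CPM (log scale) of gene lists in each of the 5 basal libraries (coloured dots) and the 5 luminal libraries (grey triangles). Basal markers sum to 9428 to 13219 CPM in basal libraries, and the squamous list stands apart in basal replicate 4 at 645 CPM.

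The gene with the highest CPM in basal cells was Slc2a1, the glucose transporter GLUT1, at 16749, 14712, 15893, 14634 and 13602 CPM in replicates 1 to 5 (Entrez 20525, GRCm38.p6 chromosome 4, 119108745 to 119137330). Hspa5, the chaperone BiP of the endoplasmic reticulum, followed at 11711, 9981, 12362, 15869 and 10236 CPM and was the highest gene of replicate 4. Ero1a, which passes oxidising power to protein disulphide isomerase, was the third in all 5 libraries, at 7612, 7028, 7092, 7009 and 6433 CPM. In luminal libraries the same genes averaged 1224, 2460.3 and 659.8 CPM, so the 3 highest ranks were held by a glucose transporter and genes of secretory protein folding. The ranking used basal levels, so the comparison of top-ranked genes with luminal cells is a description. Of the 100 genes with the highest mean basal CPM, 75 were higher in basal cells, 13 were lower and 12 were not called, 37 were also among the 100 highest of luminal cells, and 25 stood at 100 CPM or less there. Of the 100, 76 were inside the top 100 of every basal library, and the others left it in at least 1.

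The next ranks mixed housekeeping, contractile and secreted products. Galnt2, which starts mucin-type O-glycosylation, held the fourth rank in both cell types, with 5280.3 to 6621 CPM in basal and 3852 to 5691 CPM in luminal libraries. The translation factor Eef1a1 averaged 5547 ± 268 CPM (SD, n = 5) in basal and 8429.7 ± 1334 CPM (SD, n = 5) in luminal libraries. Myh9, the heavy chain of non-muscle myosin IIA, averaged 5333 ± 841 CPM and Acta2 5190.3 ± 1097 CPM (SD, n = 5 each). The growth factor gene Vegfa stood at 6302, 5056, 3833, 4311 and 4693 CPM, and Ndrg1, a gene induced by low oxygen, at 5009.5, 4594, 4640.3, 4850.2 and 4355 CPM. Connexin 43, the gap junction protein of myoepithelial cells encoded by Gja1, measured 4840.4, 4808, 4293, 3467 and 3875 CPM against 95.1 to 314 CPM in luminal cells. Ccn2, a matricellular protein, measured 3994, 4246, 2399, 3771 and 3730.1 CPM, with replicate 3 below the other 4. The matricellular protein periostin, Postn, had the largest SD relative to its mean among the first 20 genes, running from 2122 CPM in replicate 5 to 5252 CPM in replicate 2. Keratin 17, Krt17, kept between 2800.0 and 4004 CPM, and transgelin, Tagln, between 2467 and 3950.2 CPM.

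**Figure D2:**
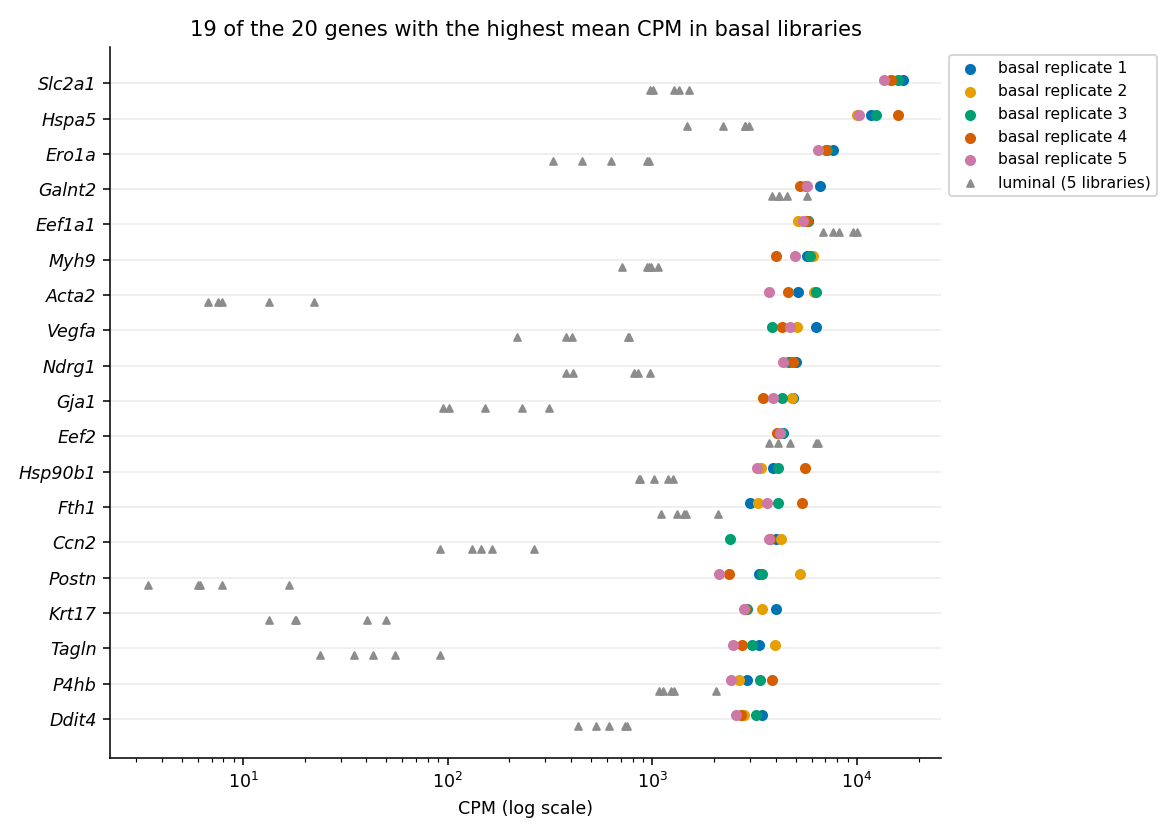
CPM (log scale) of 19 of the 20 genes with the highest mean CPM in basal cells, with 1 dot per basal library and grey triangles for the 5 luminal libraries. Slc2a1 leads at 13602 to 16749 CPM, and Postn, Acta2 and Krt17 have the lowest luminal means of those shown.

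Levels of different genes can be compared only after division by transcript length. On that per-length scale, scaled like TPM, Slc2a1 remained the leading gene at 12482, with Hspa5 at 8775, Eef1a1 at 8325, the protease inhibitor Slpi at 6882, Acta2 at 6877, Krt17 at 5523 and Tagln at 5241. The iron-storage gene Fth1 at 5041 and Fau at 4944 were also among the first 10. Short transcripts such as Slpi, which was the 28th gene by CPM, moved up on this scale, and 66 genes of the top 100 were shared between the orderings. Slpi itself measured 2068, 1829.8, 2250.5, 2799 and 2276 CPM in basal libraries and at most 120.4 CPM in luminal ones.

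Several of the leading genes belong to the lists of genes that respond to low oxygen or to unfolded protein. Of 11 hypoxia-response genes, 8 were higher in basal cells, 1 (Pdk1) was lower and 2 (Bnip3 and Pfkfb3) were not called, with a median log2 difference of 3.06. The call of Pdk1 was lost with DESeq2, with its size factors, with no filter, and when any 1 basal library or luminal replicate 2, 3 or 4 was left out. The summed level of the 11 genes was 33771, 29813, 29733, 29381 and 27276 CPM in basal libraries and 3117 to 5216 CPM in luminal ones. Most of the basal sum was Slc2a1, Vegfa and Ndrg1, which were already named above for their high rank. The carbonic anhydrase gene Car9 was at 354, 377, 316, 366 and 271 CPM in basal and at 5.5 to 9.22 CPM in luminal libraries (log2 difference 5.58 ± 0.18 SE, adjusted p = 3.03e-11, edgeR). Egln3, an oxygen-sensing hydroxylase, was at 1541, 1336, 1521, 1338 and 1267 CPM, against 78.1 to 112 CPM (log2 difference 3.95 ± 0.17 SE). For the unfolded protein and amino-acid stress list, 9 of 10 genes were higher in basal cells and Xbp1 was not called. Dnajb9, a co-chaperone of Hspa5, measured 626, 490.1, 528, 575 and 521 CPM against 52.5 to 84.3 CPM in luminal libraries. On the spread ratio defined below, these lists had medians of 0.345 and 0.912, against 0.657 over all assessed genes.

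The contractile apparatus was higher throughout. All 22 of its tested genes were higher in basal cells, with a median log2 difference of 5.17, and the summed level was 24428, 28933, 26194, 19961 and 19117 CPM against 1578 to 2039 CPM. Myosin light chain kinase, Mylk, which switches smooth-muscle contraction on, averaged 699.6 CPM in basal and 2.20 CPM in luminal libraries. Tropomyosin 2, Tpm2, averaged 837 and 12.4 CPM, caldesmon, Cald1, 1879 and 51.9 CPM, and leiomodin, Lmod1, 286 and 1.96 CPM. The log2 difference was 1.62 for Tpm1, 2.52 for alpha-actinin 1 (Actn1) and 1.69 for Csrp1, each below the median of the list. Myocd, the myocardin coactivator that drives these genes in vascular and heart muscle, was at most 0.125 CPM in any basal library. The sums were lowest in replicates 4 and 5. They include the basal markers Acta2, Myh11 and Cnn1, which were lowest in the same libraries, so this is not a separate observation.

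Receptors and channels that govern contraction were mixed, with 8 of 12 tested genes higher and 4 lower. The oxytocin receptor gene, Oxtr, measured 1071, 1631, 1182, 898 and 942 CPM in basal libraries and 3.13 to 6.53 CPM in luminal ones (log2 difference 7.75 ± 0.28 SE, adjusted p = 6.53e-11, edgeR). Stim1, the calcium sensor of the endoplasmic reticulum, measured 886, 545, 615, 350.1 and 615 CPM, whereas its channel partner Orai1 was lower in basal than in luminal cells, at means of 9.15 and 21.8 CPM. Adra1a, an adrenergic receptor that contracts smooth muscle, was at most 0.436 CPM in basal and 45.0 to 105 CPM in luminal libraries (log2 difference -8.94 ± 0.48 SE). Both endothelin receptor genes were higher in basal cells at low levels, with means of 7.11 CPM for Ednra and 6.13 CPM for Ednrb.

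The basement membrane list had 20 of 23 genes higher in basal cells, 2 lower (Lama5 and Npnt) and Fras1 not called. Col4a1, a chain of the collagen network of basement membranes, measured 783, 1019, 935, 568 and 666 CPM against 8.02 to 15.7 CPM in luminal libraries. Col17a1, a hemidesmosome collagen, measured 377, 517, 508, 589.8 and 357 CPM against at most 4.31 CPM. Sparc, a collagen-binding matrix protein, measured 801, 1229, 1387, 748 and 767 CPM, and Lama1 57.7 to 82.1 CPM. Lama5 went the other way, at 297 to 506 CPM in basal and 555 to 1015 CPM in luminal libraries (log2 difference -0.89 ± 0.19 SE, adjusted p = 0.00105, edgeR).

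Adhesion genes were higher in basal cells in 12 of 16 cases and lower in 3 (Itga2, Itgb6 and Plec). P-cadherin, Cdh3, was the steepest of them, at 464, 609.5, 587, 483 and 493 CPM against 3.04 to 5.25 CPM in luminal libraries. Itga6, the antigen of the sort, averaged 356 CPM in basal and 139 CPM in luminal libraries, and Epcam, the other antigen, 344 and 1785 CPM. Both were part of the gate, and their difference is a check of the sort and no result. The hemidesmosome integrin Itgb4 averaged 553 and 137 CPM, and the desmosomal plaque gene Dsp 923 and 287 CPM.

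Of 18 tested transcription factors linked to basal cells, 13 were higher, 3 (Tbx3, Barx2 and Meis1) were lower, and Sox9 and Bcl11a were not called. Snai2, a zinc-finger repressor, measured 98.9, 76.6, 76.5, 79.8 and 94.4 CPM against at most 0.684 CPM in luminal libraries. Irx4, a homeobox gene, measured 259.6, 205, 179.5, 148 and 200.1 CPM against at most 1.04 CPM. Id4, an inhibitor of helix-loop-helix factors, measured 365, 297, 274, 322 and 309.6 CPM against at most 3.05 CPM. Bcl11b averaged 14.1 CPM and Trp73, a p63 relative, 6.88 CPM, each against under 1 CPM in luminal cells.

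Signals released to other cells were higher in basal cells for 21 of 24 tested genes, with Ntn1 lower and Nrg1 and Bmp4 not called. The chemokine Cxcl14 measured 1897, 1711, 1992, 1495 and 2149 CPM against 1.68 to 7.04 CPM. Of the Notch ligands, Jag1 averaged 449 CPM, Jag2 measured 150.03, 205, 191, 214 and 222 CPM, and Dll1 77.8, 101, 102, 109 and 125 CPM, with luminal means of 28.8, 4.06 and 1.16 CPM. Among Wnt ligands, Wnt11 averaged 188 CPM and Wnt10a 46.0 CPM, with luminal means of 14.1 and 0.132 CPM. Netrin 1, Ntn1, measured 15.2, 25.2, 18.2, 13.7 and 17.3 CPM in basal and 181 to 411 CPM in luminal libraries (log2 difference -3.88 ± 0.26 SE, adjusted p = 1.54e-08, edgeR). Surface and stem cell markers were higher in 9 of 13 cases and lower in 4 (Cd24a, Tspan8, Cd200 and Epcam), and Epcam and Itga6 of this list were part of the gate. Cd24a averaged 159 CPM in basal and 1701 CPM in luminal libraries. The Wnt receptor Fzd7 stood at 2027, 1661, 1776, 1354 and 2040.3 CPM, Lgr5 at 57.9, 45.9, 77.4, 54.5 and 59.2 CPM, and Procr at a mean of 8.33 CPM.

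Genes almost without luminal counts were collected next. Of 24594 genes in the table, 6903 had at most 3 counts in every luminal library. Of these, 6065 also had at most 3 counts in every basal library, 838 exceeded 3 counts in at least 1, and 93, or 0.378% of all genes, had at least 10 counts in every basal library. The 93 were chosen by counts in both cell types, so no test between cell types is given for them. They were low, with a mean of 38.4 CPM for the highest, a median of 4.15 CPM and 0.815 CPM for the lowest, and 21 reached a mean of 10 CPM. None of the abundant myoepithelial genes was among them, since Acta2, Krt14 and Trp63 all had more than 3 counts in luminal libraries. In the opposite direction 122 genes met the same limits, 32 of them at a luminal mean of at least 10 CPM. Just inside the limit, with a highest luminal count of 3, lay 18 genes, among them Fgf21 and Ntf3, and just outside it, with 4, lay 22, among them Nkd1 at 34.8 to 96.1 CPM and Akap5 at 3.31 to 36.9 CPM. The roles named below were assigned after the values were seen.

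Muscle genes formed one part of the set, with 8 members whose basal levels summed to 106, 117, 83.0, 52.4 and 67.2 CPM in replicates 1 to 5. Mef2c, a transcription factor of muscle differentiation, measured 18.9, 44.6, 33.4, 18.5 and 19.6 CPM. Actc1, the actin of heart muscle, measured 38.0, 11.7, 8.50, 7.56 and 12.1 CPM, so replicate 1 held over 3 times the level of any other library. Asb2, a ubiquitin ligase subunit that targets filamin, measured 14.8, 21.3, 14.5, 9.49 and 12.6 CPM and had no count in any luminal library. Kcnmb1, the smooth-muscle subunit of the large-conductance potassium channel, measured 16.6, 18.7, 16.1, 7.56 and 11.6 CPM, also with no luminal count, although its gene overlaps Kcnip1. The pore gene of that channel, Kcnma1, was lower in basal cells than in luminal cells, at means of 3.49 and 11.9 CPM. Mir143 and Mir145a, smooth-muscle microRNA genes, were in the set at means of 2.88 and 4.15 CPM, but they overlap the non-coding host Carmn and these counts are reads over the precursor, not mature microRNA.

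Matrix and proteoglycan genes gave the highest member. Chst3, which sulphates chondroitin (Entrez 53374, chromosome 10, 60181527 to 60222114), measured 51.7, 43.2, 33.6, 24.4 and 39.0 CPM in basal libraries. Fmod, the collagen-binding proteoglycan fibromodulin, measured 13.0, 32.4, 21.3, 20.8 and 11.9 CPM. Fbln7, a fibulin, was the evenest of the first 20, at 19.6, 18.7, 18.9, 15.8 and 22.2 CPM. Cspg4, a proteoglycan that also marks pericytes, was a member at 1.39 to 5.81 CPM, and the other pericyte markers were not.

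Other members encode released or surface proteins, with 7 assigned to secreted or released signals. Dlk1, an imprinted transmembrane ligand, measured 22.7, 27.5, 35.6, 14.1 and 39.5 CPM. Lgi1, a secreted protein best known from synapses, measured 28.1, 20.04, 14.1, 9.93 and 13.1 CPM. The hormone gene Fgf21, which cells transcribe under amino-acid and unfolded protein stress, measured 7.73, 11.0, 17.2, 19.4 and 8.14 CPM, and thus differed in its high libraries from Lgi1. Receptors with 7 membrane passes had 9 members, at means of 2.07 to 11.9 CPM. P2ry1, a receptor for ADP, measured 8.79, 12.6, 13.2, 7.56 and 12.6 CPM. Adgrb1, an adhesion receptor, measured 18.6, 10.4, 9.43, 11.1 and 10.1 CPM, and the serotonin receptor gene Htr6 averaged 8.89 CPM. Among 7 transcription regulators, Atoh8 averaged 10.8 CPM and Eya1 5.81 CPM, both with no luminal count.

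**Figure D3:**
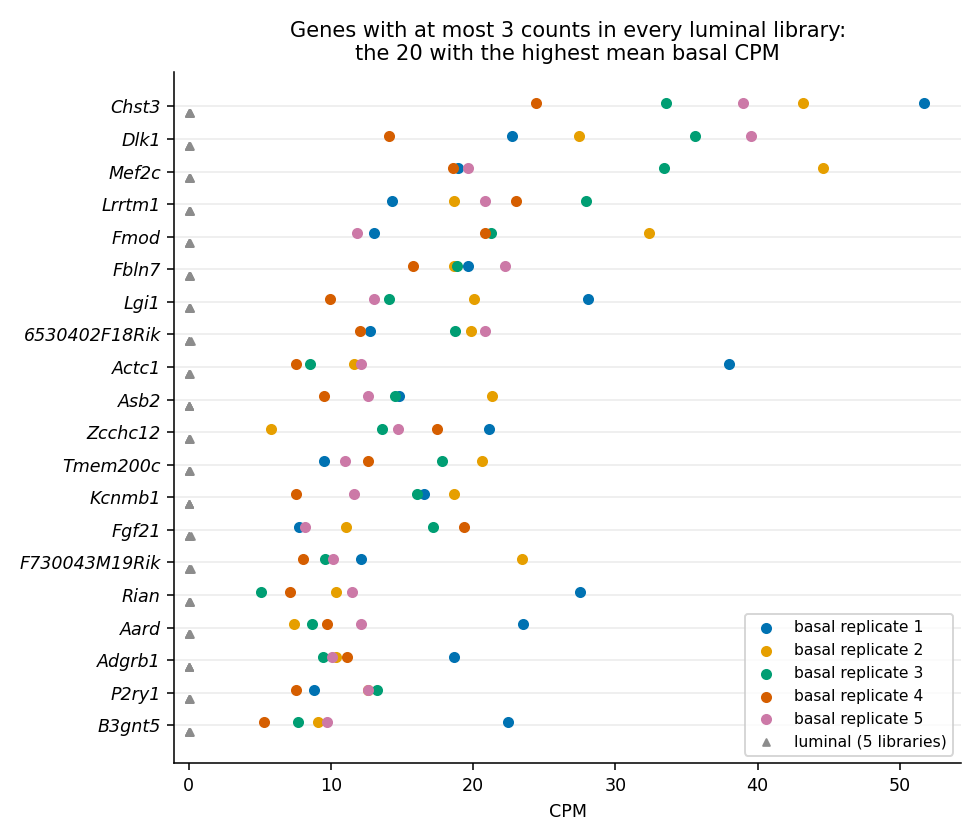
CPM of the 20 genes with the highest mean basal CPM among the 93 genes with at most 3 counts in every luminal library and at least 10 in every basal library, with 1 dot per basal library and grey triangles for luminal libraries. Actc1, Rian and B3gnt5 have replicate 1 apart from the other 4 libraries.

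Some members lay together in the genome. On chromosome 5, between 14910124 and 15714298 of the mouse assembly GRCm38.p6, 9 members belonged to a cluster of Speer4-like genes, with means of 2.37 to 9.07 CPM. The copies are nearly identical and counts can be shared among them, so their separate values are uncertain. Dlk1 and the non-coding RNA Rian lie in the same imprinted region of chromosome 12, where Dlk1 is expressed from the paternal allele and Rian from the maternal allele. Rian measured 27.5, 10.4, 5.103, 7.12 and 11.5 CPM, and its neighbour Meg3, just outside the set, 70.4, 31.4, 13.5, 29.98 and 36.3 CPM. Dlk1 was highest in replicate 5 and Rian in replicate 1, so they did not vary together. Of the 93 genes, 26 overlap another gene, among them Lrrtm1, which lies inside Ctnna2 and measured 14.3, 18.7, 27.9, 23.0 and 20.8 CPM, and how the counting treated strand is not given in the sources used here. By annotation 77 are protein-coding, 10 are long non-coding RNAs, 5 are microRNA genes and 1 is a transcribed pseudogene.

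Smooth-muscle and immediate early genes are known targets of serum response factor (SRF), which binds the CArG box. Promoters of RefSeq on GRCm38.p6, from 250 bases before to 50 after each start, were searched for this motif on both strands, which are equivalent because it is palindromic. It was present for 488 of 27025 genes, or 1.81%. It was found in 2 of 19 contractile genes with a promoter sequence (10.5%), in 2 of 18 immediate early genes (11.1%), in 3 of the 72 matched genes among the 93 (4.17%) and in none of the 4 matched basal markers. A match is a description of these letters, not of binding. The windows below are shown because they belong to basal genes described here, 5′ to 3′ on the strand of the gene, with the motif in capitals. They lie at chr2:156775278-156775337 (plus strand, Myl9), chr14:20929148-20929205 (plus strand, Vcl), chr2:114052888-114052947 (minus strand, Actc1), chr12:103356031-103356090 (minus strand, Asb2), chr9:79977963-79978022 (minus strand, Filip1) and chr10:67537772-67537831 (plus strand, Egr2).
Myl9: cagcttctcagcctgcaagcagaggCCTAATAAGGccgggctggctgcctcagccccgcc
Vcl: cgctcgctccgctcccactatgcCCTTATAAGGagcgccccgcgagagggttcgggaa
Actc1: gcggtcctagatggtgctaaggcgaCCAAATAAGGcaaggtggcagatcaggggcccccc
Asb2: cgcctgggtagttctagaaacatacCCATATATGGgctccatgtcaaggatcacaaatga
Filip1: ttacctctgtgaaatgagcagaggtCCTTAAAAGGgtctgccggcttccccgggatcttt
Egr2: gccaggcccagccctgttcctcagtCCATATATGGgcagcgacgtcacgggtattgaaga
The boxes shown differ in their central bases, except that those of Asb2 and Egr2 are identical. Another promoter window of Egr2, not shown, holds a box with other central bases. They begin 161 bases before the start for Myl9, 227 for Vcl, 47 for Actc1 and 64 for Asb2. Egr2, a zinc-finger factor on both the immediate early and the transcription factor lists, measured 198, 127, 144, 142 and 161 CPM in basal libraries against 1.21 to 1.90 CPM in luminal ones. Filip1, a filamin-binding protein, averaged 6.67 CPM.

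Differences among the 5 basal libraries were measured by a deviance ratio, the residual deviance of a fit with no groups at the trended dispersion, divided by its 4 degrees of freedom. A ratio of 1 is the spread that the trend gives for genes at that level. Of 11034 genes that passed the filter on low counts and had a mean of at least 5 CPM, 266, or 2.41%, had a ratio of at least 4, and the median ratio was 0.657. Just inside the limit lay Mef2c at 4.05, Rps28 at 4.05 and Klf6 at 4.003, and just outside it Kcnq1ot1 at 3.99, Jmjd1c at 3.99 and Txndc17 at 3.98. The ratio chose these genes, so it is given with no test. Only 1 of the 100 most abundant genes was called variable, Chil1, a chitinase-like secreted protein, at 1147, 1963, 2880.4, 3034 and 1728 CPM. Of the 39 luminal-absent genes that could be assessed 4 were called, namely Actc1 at 8.86, Rian at 7.05, B3gnt5 at 4.82 and Mef2c.

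Replicates 1 and 4 were most often the libraries that stood apart, among the called genes and among all assessed genes. Of the 266 genes, replicate 4 was farthest from the median of the 5 libraries in 108 (40.6%) and replicate 1 in 106 (39.8%), against 38.2% and 26.5% of all assessed genes. The share of replicate 4 was thus near that of all assessed genes, and the share of replicate 1 was above it. The same ratio in the 5 luminal libraries, which the choice did not use, was at least 4 for 45 of the 177 called genes that could be assessed there (25.4%), against 247 of 10100 genes assessed in both cell types (2.45%). The median luminal ratio was 1.65 for the called genes and 0.612 for all. Without replicate 4 the number of called genes was 345, with 174 of the 266 among them, and without replicate 1 it was 309, with 173 among them.

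**Figure D4:**
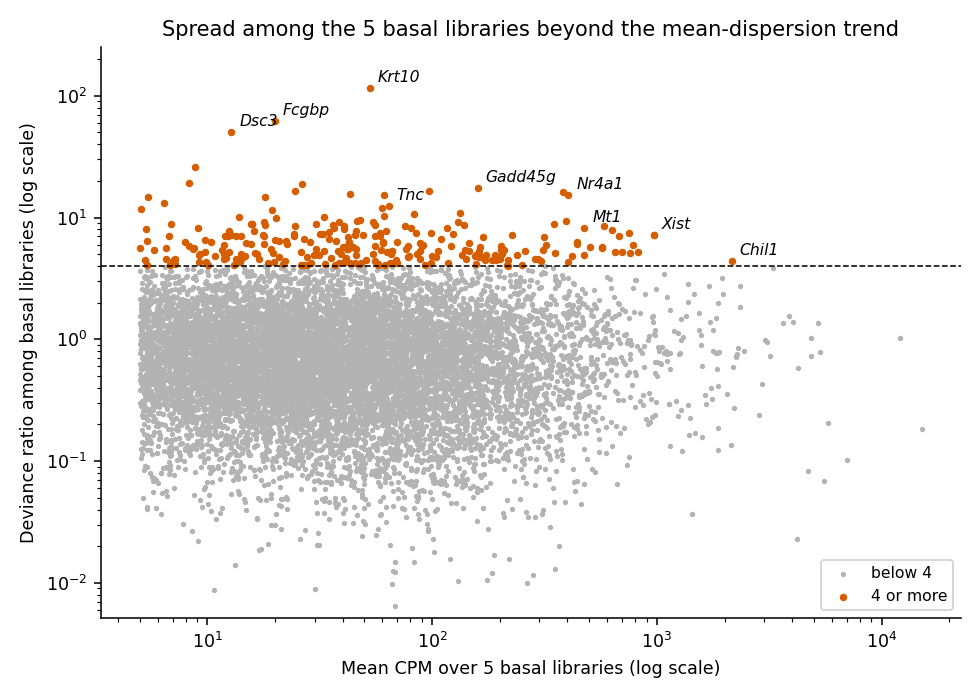
Deviance ratio among the 5 basal libraries against mean basal CPM (both log scales), with 1 dot per gene for 11034 genes and the limit of 4 dashed. The 266 genes at or above the limit are orange, with Krt10 highest at 116.

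The 100 highest ratios fell into 8 groups of genes with similar profiles, by average linkage on 1 minus Pearson's r over the 5 libraries, cut at 0.3. With 5 points each r is only the measure of likeness. A group is named here by its member with the highest ratio. The 37 genes of the Gadd45g group were all highest in replicate 1, with a mean log2 deviation of 1.19 there, 0.39 in replicate 5 and -0.83 in replicate 4. The 19 genes of the Krt10 group were all highest in replicate 4, at a mean of 1.87. The 13 genes of the Pappa2 group were all lowest in replicate 4, at -1.53. Smaller groups followed Serpina3n (11 genes), Tnc (9), Sprr1a (5), Cldn1 (3) and Extl1 (3). Of the 100 genes 30 overlap another gene, so a few pairs such as Xist and Tsix, or Gpx2 and its pseudogene Gpx2-ps1, may count the same transcripts.

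**Figure D5:**
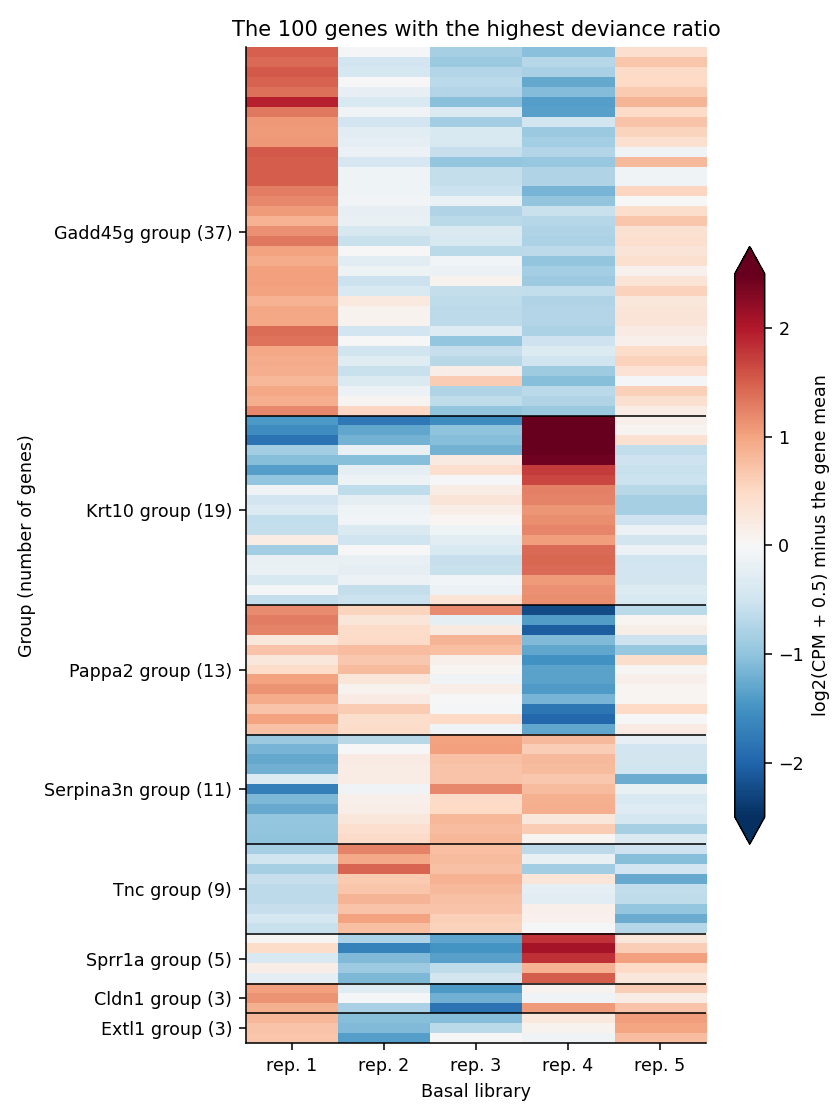
The 100 genes with the highest deviance ratio (rows) in the 5 basal libraries (columns), coloured by log2(CPM + 0.5) minus the gene's mean and divided by lines into 8 groups of similar profile. The Gadd45g group of 37 genes is highest in replicate 1 and the Krt10 group of 19 genes is highest in replicate 4.

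Gadd45g, a stress sensor (Entrez 23882, chromosome 13, 51846675 to 51848475), measured 367, 125, 72.5, 62.2 and 172 CPM in replicates 1 to 5. The nuclear receptor genes Nr4a1 and Nr4a2 measured 859.7, 288, 199, 155 and 519 CPM, and 137, 48.9, 30.7, 19.9 and 69.7 CPM. Phlda1 measured 210.0, 56.1, 41.2, 47.3 and 128 CPM, and Arc, best known as an activity-dependent gene of neurons, 725, 285, 266, 182 and 511 CPM. In these 5 genes replicate 1 was highest and replicate 5 second. Heat shock genes of the group had the same order at the top, with Hspa1a at 1377, 683, 427, 431 and 851 CPM and Hspb1 at 1213, 439.6, 416, 487 and 853 CPM. Xist, the RNA of the inactive X chromosome, followed at 1716, 939.8, 559, 532 and 1109 CPM, and so did Erdr1 at 893, 227, 186, 176 and 429.7 CPM. Actc1 and Rian of the luminal-absent set were members as well. With replicate 1 left out the ratio was still 7.88 for Gadd45g, 10.1 for Nr4a1 and 9.15 for Phlda1. In luminal libraries, 11 of the 26 members with at least 5 CPM there were highest in replicate 5 and 1 in replicate 1. CArG boxes were found in the promoters of 2 of its 26 matched genes (7.69%), Actc1 and the phosphatase gene Dusp5, which has 2 in tandem at chr19:53529038-53529107 (plus strand), shown for their spacing.
Dusp5: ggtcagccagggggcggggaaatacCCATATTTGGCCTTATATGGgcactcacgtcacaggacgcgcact

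Only part of each stress list varied. Of 22 immediate early genes that could be assessed 5 were called variable, against 2.41% of all assessed genes, Nr4a1 at 15.3, Fosb at 8.27, Klf4 at 5.30, Btg2 at 4.57 and Klf6, while Jun at 1.63, Junb at 0.772 and Ier3 at 0.513 were not. The summed list was 12208, 8284, 7116, 8169 and 9888 CPM, and 20 of 23 genes were higher in basal than in luminal cells, with Klf6 and Socs3 lower and Jund not called, and 18 were higher without basal replicate 1 or with the replicate number as a block. Of 12 heat shock genes 3 were called variable, Hspa1a, Hspb1 and Hspa1b, while Hspa8 at 0.224 and Hsp90ab1 at 0.124 were even. That list was lower in basal cells for 11 genes, with Bag3 not called. Hspa1a and Hspa1b are nearly identical, so their separate counts are uncertain. Of 17 clock genes 3 were called, Nr1d1 at 736, 419, 247, 285 and 528 CPM, Hlf at 62.5, 46.4, 28.5, 19.1 and 34.5 CPM, and Per3 at 14.2, 26.0, 5.88, 11.5 and 13.7 CPM. Nr1d1 and Hlf shared the high replicate 1, and Per3 did not. The E-box CACGTG, bound by clock factors, was in 5 of 15 clock promoters (33.3%) and in 2187 of all 27025 (8.09%), searched on both strands over the same window length. Time of day at collection is not given in the sources used here.

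The Krt10 group was set by replicate 4. Krt10, a keratin of differentiated epidermal layers (Entrez 16661, chromosome 11, 99385254 to 99397449), measured 3.12, 2.32, 2.78, 246 and 10.1 CPM. Krt1, its partner, did not pass the filter on low counts and had no ratio, but measured 0.436, 0.204, 0.387, 111 and 2.58 CPM. Both genes had replicate 5 second, far below replicate 4. The desmosomal cadherin Dsc3 measured 0.685, 1.36, 1.55, 55.3 and 5.03 CPM, Tgfbi 2.12, 3.68, 1.62, 33.9 and 2.64 CPM, and Krtdap, a keratinocyte protein that had no ratio either, 0, 0, 0, 13.6 and 0.719 CPM. Genes that are abundant in luminal cells belonged to the group too. Fcgbp, a mucus protein, measured 1.68, 2.11, 2.71, 87.5 and 6.17 CPM in basal and 586 to 2810.1 CPM in luminal libraries, and Ly6d 2.06, 2.04, 5.80, 28.4 and 3.23 CPM in basal and 999 to 2003 CPM in luminal libraries.

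Several measures moved with that group. The 8 squamous keratinocyte markers summed to 273, 191, 193, 645 and 265 CPM, with Ivl at most 0.24 CPM, and without Krt1 and Krt10 the sum was 287 CPM in replicate 4 and 189 to 269.6 CPM in the others. This and the next partial sum were chosen after the values were seen. The largest of the remaining members were Krt16 at 154 to 234 CPM and Krt6a at 19.4 to 33.0 CPM. The luminal markers summed to 1097 CPM in replicate 4 and to 968 to 1449 CPM in the other 4, but most of that was Krt8 and Krt18, and without them replicate 4 was highest, at 203 CPM against 86.8 to 155 CPM. Most of this remainder was another keratin, Krt19, at 66.7, 72.7, 107, 157 and 53.6 CPM in replicates 1 to 5. The partial sum thus does not show that the other luminal markers were higher in replicate 4. Of the 5 luminal markers that could be assessed, only Krt19 was called variable. Ribosomal protein genes summed to 36063 CPM in replicate 4 and to 22296 to 27205 CPM in the others, and luminal replicate 4 was likewise the highest luminal library for them, at 69884 CPM against 32215 to 52728 CPM. Replicate 4 also had the fewest genes with a count, 16840. In luminal cells 9 of the 14 members with at least 5 CPM there were highest in luminal replicate 4, Krt10 among them at 2.12, 4.52, 5.39, 35.8 and 16.0 CPM. The part of other cells or of RNA quality in these genes was not tested. Without replicate 4, Krt10, Fcgbp, Dsc3, Tgfbi and Ly6d fell under a mean of 5 CPM and had no ratio, and S100a14 dropped to 2.84 and Krt15 to 3.91.

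More moderate members of the Krt10 group kept a level in every library. Krt15, a keratin of basal epithelia, measured 109, 74.3, 132, 277 and 71.0 CPM. The metallothionein Mt1 measured 278, 407, 441, 956 and 298 CPM, and Mgp, an inhibitor of calcification, 98.8, 116, 141, 269 and 70.0 CPM. The chemokine gene Cxcl10 measured 9.97, 9.95, 7.50, 31.5 and 7.91 CPM, but it overlaps Art3, another member. The Sprr1a group was also highest in replicate 4 and lowest in replicates 2 or 3, with Sprr1a, a cornified envelope precursor, at 13.5, 7.57, 5.03, 47.8 and 16.2 CPM and the desmosomal cadherin Dsg3 at 4.61, 2.25, 3.87, 16.4 and 6.77 CPM.

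The Pappa2 group was the reverse, low in replicate 4. Pappa2, a protease of insulin-like growth factor binding proteins, measured 44.0, 28.5, 44.0, 3.68 and 11.9 CPM. Rgs2, which damps signalling from Gq-coupled receptors, measured 124, 62.1, 42.5, 18.9 and 52.3 CPM, and the kinase anchor Akap5 36.9, 21.4, 18.2, 3.31 and 17.1 CPM. Desmin, Des, the intermediate filament of muscle, measured 17.2, 18.1, 17.9, 3.93 and 5.15 CPM, and Carmn, a non-coding RNA of smooth muscle, 72.1, 92.0, 54.7, 20.6 and 53.7 CPM. Other muscle genes outside the 100 had replicate 4 or 5 low as well. Actg2, smooth-muscle gamma-actin, measured 118, 178, 166, 78.1 and 69.3 CPM (ratio 5.81), Cacna1c, a calcium channel, 113, 107, 107, 45.2 and 58.1 CPM (ratio 5.06), and Synpo2 139, 113, 101, 49.7 and 92.7 CPM (ratio 4.24). The other 19 contractile genes assessed stayed under the limit. Without replicate 4 the ratio of Akap5 was 3.98.

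Matrix and growth factor genes varied in other ways. The Tnc group was high in replicates 2 and 3, with tenascin C, Tnc, at 30.2, 128, 91.1, 34.0 and 37.4 CPM, fibronectin, Fn1, at 50.9, 139, 125, 63.5 and 34.0 CPM, Igfbp5 at 359, 1021, 942, 469 and 367 CPM, and the complement protease C1s1 at 66.7, 172, 187, 89.7 and 68.9 CPM. Igfbp5 was also uneven in luminal cells, with a luminal ratio of 8.08, and so was C1s1 at 7.96, whereas Fn1 was not at 1.48. Fibroblast markers summed to 38.8, 39.0, 46.9, 30.2 and 38.4 CPM in the same libraries, with Col1a1 at 1.5 to 5.38 CPM, and were highest in replicate 3. The Serpina3n group was high in replicates 3 and 4, and 10 of its 11 genes were lowest in replicate 1. Serpina3n, a protease inhibitor, measured 27.4, 32.2, 106, 93.1 and 45.7 CPM, and the glutathione peroxidase Gpx2 14.8, 34.0, 68.6, 51.7 and 24.0 CPM. Igfbp2, at 414, 598, 859, 829.8 and 220.4 CPM, was lowest in replicate 5. The tight junction gene Cldn1 was lowest in replicate 3, at 58.2, 23.1, 10.1, 30.4 and 44.0 CPM, and the chemokine gene Cxcl1 of the Extl1 group was highest in replicate 5, at 35.1, 9.68, 13.1, 22.5 and 42.8 CPM.

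On the same scale, deviance ratios among the 5 libraries were 0.375 for Trp63, 0.350 for Id4, 0.470 for Snai2, 0.795 for Krt14, 0.468 for Cdh3 and 0.184 for Slc2a1, and the largest among the 6 basal markers was 2.38 for Myh11. Ribosomal protein genes were lower in basal than in luminal cells for 71 of 79 tested, and for 53 to 76 with 1 library left out, and 3 of the 79 were called variable, near the 2.41% of all assessed genes.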

How the data were processed

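Bulk RNA-seq was performed on FACS-sorted mammary cells, and the authors deposited raw counts per gene for the 10 libraries, identified by Entrez numbers. The submitters' processing notes name cutadapt 4.2 and Bowtie2 2.3.5.1, and list the builds hg19 and mm10 with no role. The counting tool, the annotation and the use of strand are not given in the sources used here. Symbols came from RefSeq (GRCm38.p6, 24570 of 24594 genes matched), and per-length values used the longest GENCODE transcript. RefSeq promoters are not complete. No authors' comparison was used.

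Counts were filtered with filterByExpr (minimum count 10, total 15), scaled by TMM and tested with the quasi-likelihood test of edgeR 4.0.16 in R 4.3.3, with no covariate. SE is the absolute log2 difference divided by the square root of F. DESeq2 1.42.0, other scalings, other filters, a replicate block and leaving out each library were tried as alternatives. The fits were also run on simulated counts. Those counts had a common dispersion for all genes not made variable, so they do not check the deviance ratio at the trend of these data. The members and gene lists were chosen with earlier results of these data known. Named genes are list members, the 20 highest by CPM, the 10 highest per length, the 20 highest of the luminal-absent set and the 30 highest deviance ratios. Other genes were chosen after their values were seen, and some genes that the rule names are not reported here.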

Additional observations from a re-analysis of the deposited data

Results flagged for a closer look

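A basal library was marked where its gap to the nearest other library, as a share of the range of the 5, passed Dixon's critical value of 0.71. Of 103 groups of 5 values examined 16 passed, and chance marks about 1 in 20 groups. Of the 16, 7 are genes named for their high deviance ratio among the same libraries, so the number that passed cannot be read against that rate. The library that stood apart was replicate 4 in 8 cases, replicate 1 in 5, and replicates 2, 3 and 5 in 1 each. No explanation of these values was tested.

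In replicate 4 the summed squamous keratinocyte markers reached 645 CPM, against 191 to 273 CPM in the other 4 libraries, and 287 CPM against 189 to 269.6 CPM without Krt1 and Krt10. Krt10 stood at 246 CPM against 2.32 to 10.1 CPM, and Dsc3, a desmosomal cadherin, at 55.3 CPM against 0.685 to 5.03 CPM. Sprr1a, a cornified envelope precursor, stood at 47.8 CPM against 5.03 to 16.2 CPM, and S100a14, a calcium-binding protein of epithelia, at 109.9 CPM against 17.0 to 33.4 CPM. The matrix protein gene Tgfbi stood at 33.9 CPM against 1.62 to 3.68 CPM. Fcgbp, at 87.5 CPM against 1.68 to 6.17 CPM, and Ly6d, at 28.4 CPM against 2.04 to 5.80 CPM, are abundant in luminal libraries.

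In replicate 1 the TMM factor was 0.892, below the 0.943 to 0.960 of the other basal libraries. Of the luminal-absent genes, Actc1 stood at 38.0 CPM against 7.56 to 12.1 CPM, Rian at 27.5 CPM against 5.103 to 11.5 CPM, B3gnt5, a glycosyltransferase, at 22.4 CPM against 5.31 to 9.70 CPM, and Adgrb1 at 18.6 CPM against 9.43 to 11.1 CPM. F730043M19Rik, a non-coding RNA of the same set, was highest in replicate 2, at 23.4 CPM against 8.06 to 12.1 CPM. Ccn2 was lowest in replicate 3, at 2399 CPM against 3730.1 to 4246 CPM. The share of counts held by the 20 leading genes was lowest in replicate 5, at 9.19% against 10.1 to 10.3%.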

How the results depend on the processing

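The cause of each shift given here was not tested. The ordering per length shared 66 genes with the 100 highest by CPM, and leaving out each basal library in turn left 94 to 98 of them. The luminal-absent set of 93 genes became 30 with 0 luminal counts, 293 with at most 10 luminal counts, 342 with at least 10 counts in 1 or more basal libraries, and 36 with at least 50 in every basal library. It held 90 genes, 81 of them shared, with libraries thinned to the smallest total, and 96 to 123 with 1 library left out. The 266 variable genes became 509 at a ratio of 3, 113 at a ratio of 6 and 741 with variance-stabilised values, and ranged from 292 to 345 with a basal library left out. DESeq2 dispersions called 296, with 264 shared.

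Genes higher in basal cells numbered 3705 to 5089 and lower ones 4178 to 5705 over the other scalings, filters and DESeq2, and 4251 to 4612 and 4625 to 5012 with 1 library left out. With upper-quartile factors the median of all genes shifted by -0.12 on the log2 scale, and with library totals by -0.19. With library totals 4 of 18 interferon genes were higher, and without basal replicate 4 it was 5, in place of 8. With at least 10 counts in every library, the transcription factors, the receptors and channels, and the surface and stem cell markers had 5 genes higher each and the pericyte markers 0, since this filter left 10, 8, 9 and 1 of their genes to test. The ratio dropped under 4 for S100a14 (2.84), Krt15 (3.91) and Akap5 (3.98) without basal replicate 4 and for Cldn1 (3.94) without basal replicate 3. Chosen after seeing the data, cuts at 0.2 and 0.4 and complete linkage gave a largest group of 33, 50 and 31 genes in place of 37, and leaving out a basal library gave 31 to 52.

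With the replicate block 4539 genes were higher and 4740 lower. Basal and luminal libraries share numbers in the labels. Their deviations correlated at r = -0.13 to 0.25 for the same number and at -0.24 to 0.22 for different ones, across genes. These ranges overlap and do not settle whether the libraries are paired. The main test is not paired, and the block is given beside it. The library names of each same-numbered pair also begin with the same number, whose meaning is not given in the sources used here, so a shared mouse or preparation cannot be told apart from a shared name. With the block 3 proliferation genes were lower in place of 5. A count of 3 in a library limits what the luminal-absent set can show, since at that level 0 and 3 counts are hard to tell apart.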

Other observations

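Some genes of antigen presentation were higher in basal than in luminal cells. H2-Ab1, a chain of MHC class II, measured 82.0, 53.4, 60.5, 75.1 and 55.3 CPM in basal replicates 1 to 5 and 5.57 to 11.7 CPM in luminal libraries (log2 difference 2.97 ± 0.22 SE, adjusted p = 3.38e-08, edgeR). Cd74, the invariant chain that accompanies it, averaged 20.7 CPM in basal and 2.62 CPM in luminal libraries, while H2-Aa and H2-Eb1 were not called and stayed at or under 4.11 CPM. The immune markers summed to 37.7 to 55.6 CPM in basal and 22.7 to 32.2 CPM in luminal libraries, with Cd68 and Csf1r higher, C1qa, Lyz2 and Cd52 lower and Ptprc at most 0.0682 CPM in basal libraries, and their part in these genes was not tested. The lineage antibodies of the study's sorting method, which the labels of these libraries do not name, include one against immune cells. Of 18 interferon-response genes 8 were higher in basal cells, 6 lower and 4 not called, and the number higher was 4 with library totals and 5 without basal replicate 4. Ifit1 was higher, at 66.9 to 108 CPM against 22.7 to 46.7 CPM, and Irf1 was lower, at 32.2 to 51.0 CPM against 132 to 297 CPM. Of these genes Cxcl10 and Ifi44 were called variable between basal libraries, Ifi44 with the highest level in replicate 2, at 39.5 CPM.

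Over all tested genes 31.2% were higher and 33.6% lower in basal cells, and the counts of the metabolic and hormone-response lists are given beside those shares. Of 14 sterol and fatty-acid synthesis genes 7 were higher in basal cells, 4 lower and 3 not called, and 5 to 9 were higher over the alternatives. The squalene epoxidase gene Sqle stood at 77.0 to 115 CPM against 36.1 to 77.7 CPM, whereas the desaturase gene Scd1 stood at 18.4 to 40.6 CPM against 187 to 633 CPM. Of 10 glucocorticoid-response genes 3 were higher and 5 lower. Errfi1, an inhibitor of the EGF receptor, averaged 1702 CPM in basal and 322 CPM in luminal libraries, and Zbtb16 6.37 and 58.4 CPM. Of 18 clock genes 5 were higher and 7 lower, with Nfil3 at 272 to 560 CPM against 110.1 to 154 CPM.

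Proliferation genes were low, with 1 of 15 tested higher, 5 lower and 9 not called, and with 2 to 6 lower over the alternatives. Mki67 measured 1.06, 9.13, 4.64, 0.625 and 0.779 CPM in basal libraries, and Pcna, the member that was higher, 35.5 to 60.1 CPM, though its call was lost with library totals, with upper-quartile factors, and without basal replicate 4 or 5 or luminal replicate 1, 2 or 3. Among the skeletal muscle markers Acta1 measured 86.3, 108, 131, 76.6 and 67.4 CPM against at most 1.75 CPM in luminal libraries, while Myh4 and Tnnt3 were at 0 in every basal library. Of 2 erythroid markers tested 1 was lower. Of the 5 genes of the Y chromosome and Xist list, 2 had a mean of at least 5 CPM in basal libraries. These were Xist and a Y-linked gene that is not reported here, and neither was called between cell types. The other Y-linked genes, Eif2s3y, Kdm5d and Uty, were at most 0.309 CPM in basal libraries.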
